A study of Mus musculus with 29 samples.

Results

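In cultured mouse skin cells, 10 transcription factors that build and stratify the epidermis were followed: Trp63, Tfap2a, Klf4, Ovol1, Grhl1, Grhl3, Cebpa, Cebpb, Gata3 and Hopx. Every bead array probe annotated to one of these symbols was taken, and it was kept where it was detected (detection p below 0.01) on 2 or more of 29 arrays. This left 13 of the 15 probes on the array for these genes, out of 11794 kept probes in the whole series, and they cover 9 of the 10 genes. Hopx, a homeodomain-only cofactor known from hair follicle stem cells and differentiating keratinocytes, had 1 probe that was detected on 0 of 29 arrays (signal 47.2 to 64.7), so it has no value below. A further Tfap2a probe was also detected on 0 of 29 arrays.

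The cells were primary tail keratinocytes of C57BL/6 background, the epithelial cells of the epidermis, cultured at 32 °C. All of them, controls included, were c-FostetON cells, in which c-Fos can be switched on with doxycycline (Dox); the sources used here do not give the promoter or cell type that drives the inducible system. The groups were Dox and untreated at 6, 12, 24, 48 and 72 h, with 3, 3, 3, 2 and 3 Dox replicates and 2, 2, 3, 3 and 3 untreated replicates. At 72 h each treatment has 4 arrays, of which the pair sharing the letter C was averaged. No untransgenic culture was analysed here, so an effect of Dox itself and one of c-Fos cannot be told apart, and no label says whether replicates came from separate animals, and p-values therefore reflect the spread among samples, which may be technical.

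As background, p63, the product of Trp63, holds the proliferative basal layer in its epithelial identity, and AP-2 alpha, the product of Tfap2a, works beside it on basal keratin genes. Klf4, Ovol1, the Grainyhead-like factors Grhl1 and Grhl3 and the C/EBP factors Cebpa and Cebpb act later, as cells leave the basal layer and form the barrier. c-Fos is a subunit of AP-1, a factor that binds the letters TGANTCA and regulates many differentiation genes in skin.

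RefSeq promoter windows (GRCm38.p6, 250 bases before to 50 after a start site) were found for 8 of the 10 genes, 11 windows in all; Trp63 and Ovol1 had none. Windows of Klf4 and Grhl1 are printed because Klf4 gave the largest Dox difference at 72 h and because the Grhl1 probes disagreed with each other and Grhl1 has more than 1 start site. Capitals mark matches on either strand to GGGCGG (the GC box, a motif added after the windows had been seen) or to TTGCNNCAA. The latter pattern was searched for under the name C/EBP, but it is not the C/EBP consensus and its matches do not count C/EBP sites.
Klf4, chr4:55532426-55532725, minus strand: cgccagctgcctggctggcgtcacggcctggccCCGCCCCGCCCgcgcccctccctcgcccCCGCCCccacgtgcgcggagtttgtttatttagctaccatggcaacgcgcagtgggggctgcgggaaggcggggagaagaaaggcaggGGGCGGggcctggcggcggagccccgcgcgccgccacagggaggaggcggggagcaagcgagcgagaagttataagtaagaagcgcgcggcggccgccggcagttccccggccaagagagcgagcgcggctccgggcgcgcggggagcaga
Grhl1, first start site, chr12:24572037-24572336, plus strand: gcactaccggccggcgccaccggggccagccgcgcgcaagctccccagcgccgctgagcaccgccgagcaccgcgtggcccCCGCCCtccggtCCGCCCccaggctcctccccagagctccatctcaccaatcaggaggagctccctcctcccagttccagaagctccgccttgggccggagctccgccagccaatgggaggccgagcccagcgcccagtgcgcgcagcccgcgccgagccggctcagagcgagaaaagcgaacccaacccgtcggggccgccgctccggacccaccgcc
Grhl1, second start site, chr12:24580469-24580768, plus strand: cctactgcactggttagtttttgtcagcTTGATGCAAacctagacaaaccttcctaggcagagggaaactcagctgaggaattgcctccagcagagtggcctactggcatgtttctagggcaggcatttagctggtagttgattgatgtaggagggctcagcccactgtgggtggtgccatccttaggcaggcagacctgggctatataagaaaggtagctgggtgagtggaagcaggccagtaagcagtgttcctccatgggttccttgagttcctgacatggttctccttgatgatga
The Klf4 window is 74.3% G or C and holds 4 matches to the GC box, of which the first and second share 1 letter. The first Grhl1 window is 75.3% G or C with 2 GC boxes, and the second is 51.3% G or C with none. TGANTCA was found in 0 of the 11 windows, against 7.81% of 32851 RefSeq windows of the same length. TTGCNNCAA was found in 1 of the 11, 222 bases before the second Grhl1 start, where the motif lies on the minus strand and the printed plus strand reads TTGATGCAA, against 2.08% of all windows. The GC box is in 35.7% of all windows. These are descriptions of letters, and a window without a match says only that the letters are not there.

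The cultures were checked as keratinocytes first. Of 15 keratinocyte identity genes 14 were measured, and their summed level, on the linear scale after background correction and normalization, was 47700 to 59200 on every array, with keratins Krt5, Krt14, Krt6a and Krt17 among them. Fibroblast collagens (Col1a1, Col1a2, Col3a1), the pan-leukocyte gene Ptprc and the endothelial gene Pecam1 were not detected, the 2 measured fibroblast markers (Vim, Thy1) of 9 summed to 7.3 to 42.7, and 4 of 9 melanocyte markers (Dct, Tyrp1, Pmel, Mlana) to 47.5 to 85.2. Of 9 immune markers H2-Ab1 was measured (8.24 to 26.5), of 5 endothelial markers Kdr (3.9 to 18.9), and of 12 hair follicle and sebaceous markers 4 were, Sox9, Krt75, Lrig1 and Scd1 (summed 403 to 562). Fos itself, the gene of the induced protein, read lower on the arrays labelled Dox at 24, 48 and 72 h (-0.76, -0.83 and -0.78 on the log2 scale), and the sources used here do not say where its probe lies on the induced transcript; directions below therefore follow the labels. The 5 kept probes of Actb, a housekeeping gene, gave unequal readings at 6 h: the difference between the pair that varied most was 3.95 to 4.59 (log2) on untreated 6 h arrays against -4.03 to -3.44 on Dox 6 h arrays. At 12 h the same difference was 1.1 to 1.63 untreated and -2.59 to -1.75 with Dox, and at 72 h -2.41 to -1.71 and -3.71 to -3.09. Fits with an Actb probe difference as a covariate used the brightest and dimmest probes or the pair above. In them limma's adjusted p was below 0.05 for 0.78 and 2.25% of all kept probes between treatments at 6 h, against 25.4% without. At 12 h these shares were 0.0339 and 0.0254%, against 1.6% without. Because these differences separate the treatments on every 6 and 12 h array, a result lost at those times cannot be assigned to the Actb reading or to Dox.

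**Figure D1:**
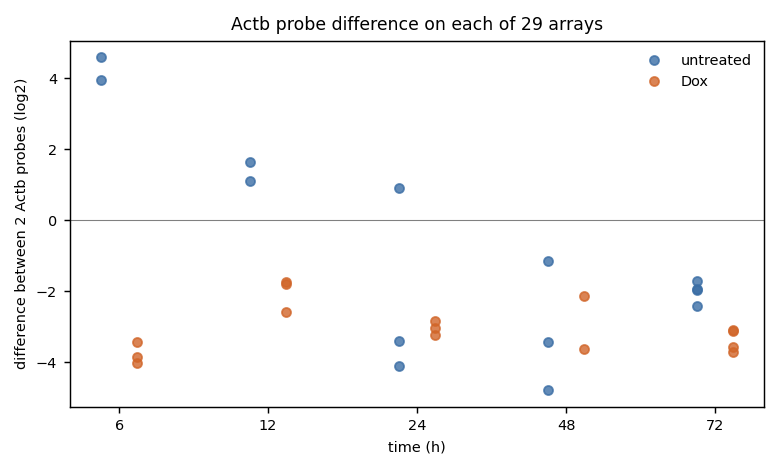
Difference between 2 Actb probes (log2) on each of 29 arrays, by time in hours, with one colour for untreated and one for Dox arrays. The untreated 6 h arrays sit at 3.95 and above while every Dox 6 h array is below -3.4.

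The question in each comparison was how the level of each factor differs between Dox and untreated cultures of the same age. At 72 h Klf4 and Trp63 were higher with Dox, and at 6 h Gata3, Cebpa and 1 of 2 Grhl1 probes were higher and Ovol1 lower. No factor passed the test at 12, 24 or 48 h. A probe was called where limma's adjusted p (Benjamini-Hochberg over all 11794 kept probes) was below 0.05, and differences are Dox minus untreated on the log2 scale. At 72 h 4 of the 13 probes were called, all higher, where 5.61% of all kept probes were called and 2.7% were called higher. At 6 h 4 of 13 were called, 3 higher and 1 lower, against 25.4% of all kept probes (12.5% higher and 12.8% lower), a share close to that of the members. At 12, 24 and 48 h the counts were 0, with limma p below 0.05 before adjustment for 1, 4 and 4 probes, and 1.6, 2.54 and 2.35% of all kept probes called. Because these are bulk RNA samples, fewer cells of a type and less RNA per cell cannot be told apart.

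**Figure D2:**
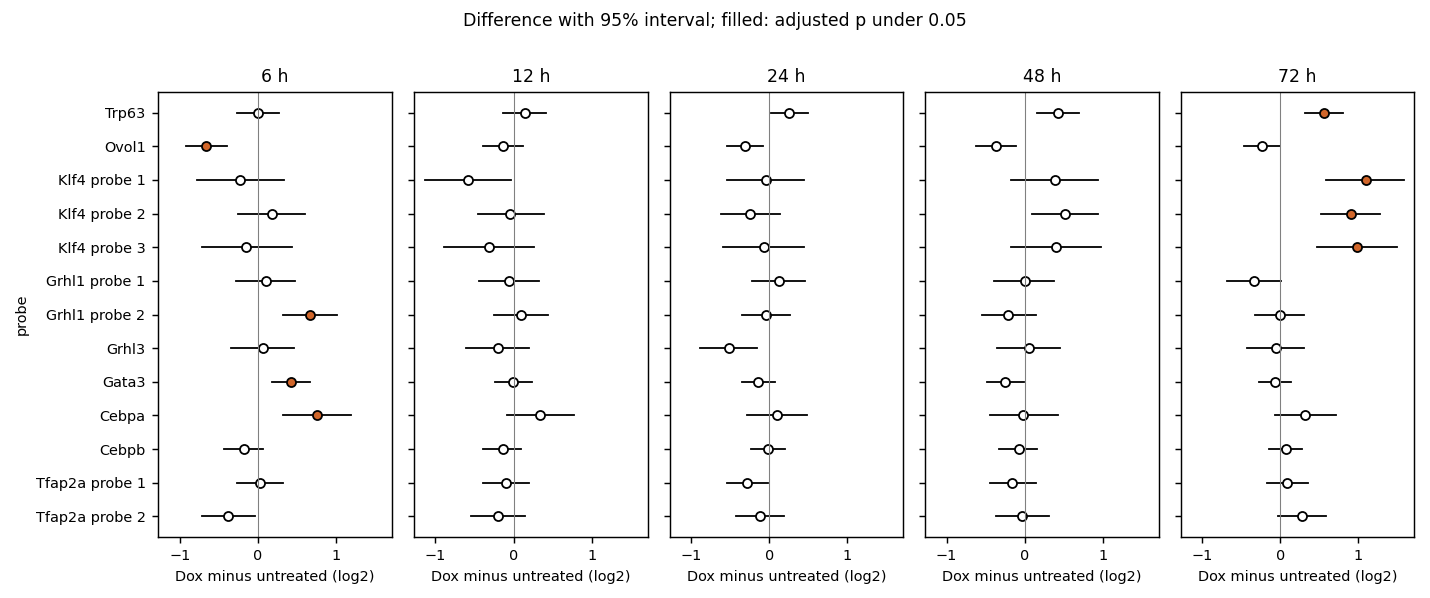
Dox minus untreated difference (log2) of the 13 kept probes at 6, 12, 24, 48 and 72 h, with 95% intervals from the limma fit; filled points have an adjusted p below 0.05. At 24 h Klf4 probes 1 and 3 lie near 0 (-0.04 and -0.07) and probe 2 at -0.24, and at 72 h all 3 lie between 0.90 and 1.09.

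Trp63, the p63 gene, was higher with Dox in the oldest cultures. At 72 h the untreated arrays read 11.14, 11.31, 11.26 and 11.39 and the Dox arrays 11.73, 11.96, 11.75 and 11.77 (log2 values after background correction and quantile normalization). Every Dox array lay above every untreated array, which was so for 15% of all kept probes in one or the other direction. The difference was 0.56 (SE 0.12, 95% interval 0.32 to 0.80, 1.48-fold, 3 against 3 replicates, adjusted p = 0.00288). It was as large with an Actb probe difference as a covariate (0.53 or 0.64, adjusted p = 0.00549 and 0.001).

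At the earlier times the Trp63 difference did not pass. It was 0.00 at 6 h (interval -0.27 to 0.27), 0.14 at 12 h, 0.26 at 24 h (0.02 to 0.50, adjusted p = 0.274) and 0.43 at 48 h (0.16 to 0.70, adjusted p = 0.0941). At 48 h the untreated arrays read 11.14, 11.20 and 11.22 and the Dox arrays 11.50 and 11.73, without overlap, as for 26% of kept probes. With an intensity trend in limma's variance prior this difference was called (adjusted p = 0.0276). Whether the Dox effect differed over the 5 times was tested too, and Trp63 did not pass (adjusted p = 0.123).

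Over culture time untreated Trp63 went from 11.98 ± 0.18 (SD, n = 2) at 6 h through 11.85 ± 0.18 (SD, n = 2), 11.45 ± 0.21 (SD, n = 3) and 11.19 ± 0.04 (SD, n = 3) to 11.26 ± 0.10 (SD, n = 3) at 72 h. With Dox it was 11.98 ± 0.16 (SD, n = 3) at 6 h and 11.82 ± 0.12 (SD, n = 3) at 72 h. The untreated change was -0.72 (SE 0.13, adjusted p = 6.96e-05), and the Dox difference of -0.16 did not pass (interval -0.40 to 0.08, adjusted p = 0.319). The untreated call ended with either Actb covariate (-0.28 and -0.39, adjusted p = 0.704 and 0.216) and on the authors' own values (-0.01). The authors' log2 values have slopes of 0.654 to 0.835 on the log2 signal. Here and below, sizes of differences on them are therefore not on the same scale as those of the main fit. With these covariates 7.6 and 20.9% of all kept probes were called in this change, against 44.4% without. The single probe does not tell the p63 isoforms apart, since the sources used here do not place it on the gene.

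Genes known as p63 targets in basal cells were read beside it, from a list chosen with earlier results of these data known. Of 18 measured genes 4 were higher with Dox at 72 h and 0 lower, where 6.25% of 8271 genes were called, and the list's median difference was 0.12 against -0.01 for all genes. The 4 were Col17a1, the hemidesmosomal collagen (0.73, adjusted p = 0.000154), Itga6, the integrin of hemidesmosomes (0.89, adjusted p = 0.000226), Fgfr2, a receptor for fibroblast growth factors (0.80, adjusted p = 0.000907), and Jag2, a Notch ligand (0.63, adjusted p = 0.00887). At 48 h 0 of 18 passed limma's test (2.58% of all genes called), at 24 h only Itga6 (0.58, adjusted p = 0.0332, 2.89%), and at 12 h the desmosomal cadherin Dsc3 (1.39) and Fgfr3 (0.65) did (1.38%). The Actb readings also separate the treatments at 12 h, and with the Actb covariates 4 and 3 of 11794 kept probes were called then. At 6 h, when 24.3% of all genes were called, 5 rose and 2 fell, with Cldn1, Dsc3 and Krt5 among the higher genes (0.91, 1.44 and 0.77) and the laminin chain Lamb3 lower (-0.69), at the time when the Actb readings differ most.

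Tfap2a, the AP-2 alpha gene, did not pass in any Dox comparison on either kept probe. Probe 1 read 8.83, 8.74, 8.73 and 8.67 on untreated arrays and 8.76, 8.93, 8.87 and 8.81 on Dox arrays at 72 h, and these ranges overlap. Its difference was 0.09 at 72 h (interval -0.17 to 0.35) and -0.28 at 24 h (interval -0.54 to -0.01, adjusted p = 0.284). Probe 2 differed by 0.28 at 72 h (interval -0.03 to 0.58) and by -0.38 at 6 h (interval -0.72 to -0.04, adjusted p = 0.0974). In untreated cultures both probes were lower at the last time than at the first (-0.40 and -0.86, adjusted p = 0.0251 and 0.000134), but both directions reversed on the authors' values (0.34 and 0.01). Over the 10 group means the probes correlated at r = 0.87.

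Klf4, a zinc-finger factor of the upper epidermal layers that is required for the skin barrier of the newborn mouse, had the largest Dox difference of the set at 72 h, and it was seen on each of its 3 probes. On probe 1 the untreated arrays read 6.95, 7.19, 6.68 and 6.57 and the Dox arrays 7.77, 8.15, 8.02 and 8.19. Probe 2 read 6.01, 6.45, 7.0 and 6.74 against 7.56, 7.19, 7.17 and 7.41. Probe 3 read 5.41, 5.47, 5.64 and 5.33 against 6.47, 6.6, 6.07 and 6.41. On none of the probes did an untreated array reach the lowest Dox array; 15% of all kept probes had no overlap at 72 h, in one or the other direction.

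The 72 h difference was 1.09 on probe 1 (SE 0.24, interval 0.59 to 1.58, 2.12-fold, adjusted p = 0.00501), 0.90 on probe 2 (SE 0.18, interval 0.52 to 1.28, adjusted p = 0.00227) and 0.98 on probe 3 (SE 0.25, interval 0.47 to 1.49, adjusted p = 0.0162). The probe 3 call ended when untreated replicate 1 or 2 or Dox replicate 1 or 2 of 72 h was left out, with values of 0.90 to 0.99. It also ended on the authors' values (0.38, adjusted p = 0.0872) and without a detection filter (0.98, adjusted p = 0.062). With an Actb covariate all 3 probes stayed past the threshold, at 0.85 to 1.16. All 4 calls at 72 h, Trp63 included, ended where a fold of at least 1.2 was tested for, in place of any difference.

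Before 72 h Klf4 did not differ between treatments beyond the test. The probe 1 difference was -0.23 at 6 h, -0.58 at 12 h (interval -1.14 to -0.03, adjusted p = 0.35), -0.04 at 24 h (interval -0.54 to 0.45) and 0.39 at 48 h (interval -0.17 to 0.94, adjusted p = 0.642). The 12 h value rests on arrays that spread widely, 9.77 and 8.89 untreated against 8.11, 9.07 and 9.06 with Dox. At 48 h probe 2 differed by 0.52 (interval 0.09 to 0.94, adjusted p = 0.263), and its arrays overlap, at 6.92, 6.82 and 7.49 untreated against 7.33 and 7.86 with Dox.

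The Dox effect on Klf4 depended on time by the test over all 5 times on probes 1 and 2 (adjusted p = 0.0118 and 0.0182) and not on probe 3 (adjusted p = 0.0623); 15.3% of all kept probes passed this test. Without the 6 h effect both probes still passed (adjusted p = 0.0464 and 0.0488), and with the Actb covariate of the brightest and dimmest probes neither did (0.165 and 0.0807). With that covariate 2.89% of all kept probes passed. In a comparison added after the values had been seen, the effect at 72 h exceeded that at 24 h by 1.13, 1.15 and 1.05 on probes 1, 2 and 3, and only probe 2 passed (adjusted p = 0.105, 0.0228 and 0.158; 1.29% of kept probes called, 0.568% higher). That call ended in a fit blocked on array set (1.39, adjusted p = 0.0574) and when any of 5 replicates was left out: untreated 1 or 3 or Dox 1 of 24 h, or untreated 1 or Dox 1 of 72 h (0.93 to 1.14, adjusted p = 0.0556 to 0.0966).

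On probes 1 and 3 the Klf4 levels of the 2 treatments were alike in mean at 24 h, and on all 3 probes they were apart at 72 h. Probe 2 differed by -0.24 at 24 h (interval -0.62 to 0.14). Untreated Klf4 on probe 1 stood at 9.36 ± 0.06 (SD, n = 2) at 6 h, 8.14 ± 0.30 (SD, n = 3) at 24 h and 6.92 ± 0.29 (SD, n = 3) at 72 h, and with Dox at 9.13 ± 0.18, 8.09 ± 0.13 and 8.01 ± 0.21 (SD, n = 3 each). From 24 to 72 h the untreated level changed by -1.21 (adjusted p = 0.000773), -1.06 (adjusted p = 0.000193) and -0.86 (adjusted p = 0.0174) on the 3 probes. With Dox the same change was -0.08 (interval -0.58 to 0.41), 0.09 (interval -0.29 to 0.47) and 0.19 (interval -0.32 to 0.71). From 6 to 72 h all 3 probes fell in both treatments, with changes of -2.43, -1.32 and -1.97 untreated and -1.12, -0.60 and -0.84 with Dox, though on the authors' values the Dox change of probes 2 and 3 was 0.16 and 0.02 and that of probe 1 -0.23 (adjusted p = 0.206). The untreated calls ended with the Actb covariate of the brightest and dimmest probes (-1.91, -0.52 and -1.06, adjusted p = 0.117, 0.638 and 0.445), and the Dox calls of probes 2 and 3 with median scaling (-0.13 and -0.38, adjusted p = 0.626 and 0.17). Group means of the probes correlated at r = 0.87 (1 and 2), 0.99 (1 and 3) and 0.86 (2 and 3) over 10 groups.

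**Figure D3:**
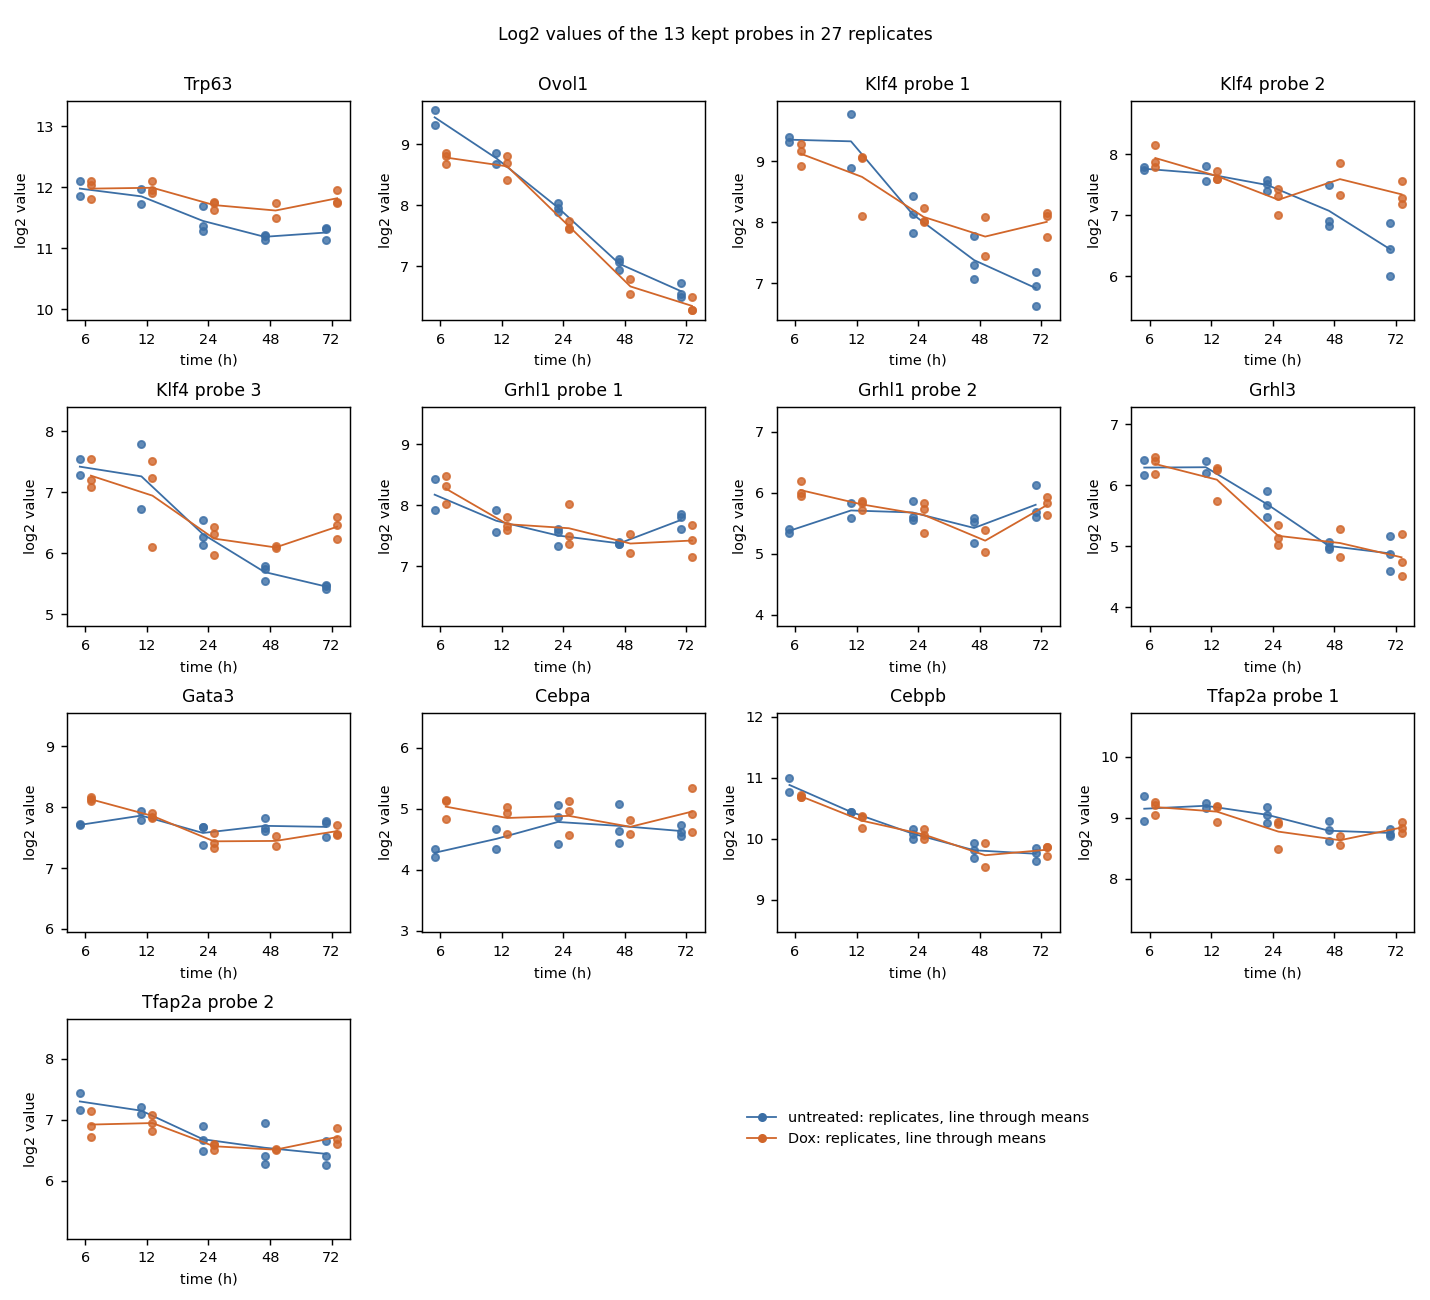
Log2 value of each kept probe (vertical axis) against time in hours, 1 panel per probe; points are the 27 replicates and lines join group means, with one colour for untreated and one for Dox. Ovol1 falls from 9.45 to 6.6 untreated and from 8.79 to 6.35 with Dox, while on each Klf4 probe the Dox mean lies above the untreated mean at 48 and 72 h.

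Ovol1, a zinc-finger repressor that drives progenitor cells of the mouse epidermis out of the cycle, had the largest change from 6 to 72 h among the 13 probes in both treatments and was lower with Dox at 6 h. Untreated means were 9.45 ± 0.17 (SD, n = 2) at 6 h, 8.78 ± 0.13 (SD, n = 2) at 12 h, 7.97 ± 0.08 (SD, n = 3) at 24 h, 7.04 ± 0.09 (SD, n = 3) at 48 h and 6.6 ± 0.12 (SD, n = 3) at 72 h. With Dox they were 8.79 ± 0.09, 8.64 ± 0.20 and 7.66 ± 0.07 (SD, n = 3 each), 6.67 ± 0.18 (SD, n = 2) and 6.35 ± 0.12 (SD, n = 3). The 10 group means follow the time order, and the only neighbours of different ages whose replicates overlap are Dox 6 h and untreated 12 h, at 8.79 and 8.78, and Dox 48 h and untreated 72 h, at 6.67 and 6.6. From 6 to 72 h the change was -2.85 untreated (7.21-fold lower, adjusted p = 5.79e-15) and -2.43 with Dox (5.40-fold lower, adjusted p = 6.77e-15). From 24 h on it was -1.37 and -1.31 (adjusted p = 2.36e-09 and 4.97e-09).

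At 6 h the untreated arrays read 9.33 and 9.56 for Ovol1 and the Dox arrays 8.86, 8.81 and 8.69. The groups do not overlap, as for 49.2% of all kept probes at this time. The difference was -0.66 (SE 0.13, interval -0.92 to -0.40, adjusted p = 0.000305), and with the Actb covariates it was -0.45 and -0.65 with adjusted p of 0.632 and 0.217. Later differences did not pass: -0.13 at 12 h, -0.31 at 24 h (interval -0.54 to -0.08, adjusted p = 0.153), -0.37 at 48 h (interval -0.63 to -0.11, adjusted p = 0.15) and -0.24 at 72 h (interval -0.47 to -0.01, adjusted p = 0.273). All 5 differences are below 0, and at 24 and 48 h every Dox array was below every untreated one. The arrays of 20.5 and 26% of all kept probes did not overlap at these times, in one or the other direction.

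Grhl1, a Grainyhead-like factor that regulates desmosomal cadherins, gave different answers on its 2 probes. On probe 2 the untreated 6 h arrays read 5.41 and 5.35 and the Dox arrays 6.19, 6.00 and 5.95, a difference of 0.67 (SE 0.17, interval 0.32 to 1.01, adjusted p = 0.0043). On probe 1 the same arrays read 7.92 and 8.42 against 8.02, 8.32 and 8.48, which overlap, and the difference was 0.10 (interval -0.28 to 0.48, adjusted p = 0.745). The group means of the probes correlated at r = 0.40 over 10 groups, lower than for the Klf4 or Tfap2a probes, and the sources used here do not say which Grhl1 transcripts each probe reads. With the Actb covariates the probe 2 difference was 0.34 and 0.44 and no longer passed (adjusted p = 0.824 and 0.584). At 72 h the differences were -0.34 on probe 1 (interval -0.68 to 0.01) and -0.01 on probe 2 (interval -0.32 to 0.30).

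Grhl3, the family member needed for barrier formation and wound closure in mice, fell with culture time in both treatments and did not pass in a Dox comparison. The untreated mean was 6.29 ± 0.17 (SD, n = 2) at 6 h and 4.88 ± 0.29 (SD, n = 3) at 72 h, and the Dox mean 6.35 ± 0.14 and 4.82 ± 0.35 (SD, n = 3 each), changes of -1.41 and -1.53 (adjusted p = 1.78e-06 and 1.34e-07). On the authors' values these were -0.14 (adjusted p = 0.0767) and -0.18 (adjusted p = 0.013), and with the Actb covariate of the brightest and dimmest probes the untreated change was -1.40 (adjusted p = 0.122). At 72 h it was detected on 3 of 4 untreated and 2 of 4 Dox arrays, so the late values lie at the detection limit. At 24 h the untreated arrays read 5.47, 5.91 and 5.67 and the Dox arrays 5.13, 5.01 and 5.35, without overlap, as for 20.5% of kept probes. That difference was -0.52 (interval -0.88 to -0.15, adjusted p = 0.124), and with the array set as a block, since the 24 h arrays lie in 2 sets, -0.55 (adjusted p = 0.552).

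Cebpa, which encodes C/EBP alpha, was near the detection limit on most arrays. It was detected on 13 of 29 arrays, on none of the untreated arrays at 6, 12 or 72 h and on 2 of 3, 2 of 3 and 3 of 4 Dox arrays at those times. At 6 h the arrays read 4.21 and 4.34 untreated and 5.15, 4.82 and 5.13 with Dox, a fitted difference of 0.76 (SE 0.21, adjusted p = 0.00966). Since the untreated value is only a limit, the Dox mean at 6 h was set against the mean detection limit of the untreated arrays. It lay 1.09-fold above that limit (0.13 log2), less than the SE of the fitted difference, so this is not a firm lower bound. On the authors' values the 6 h difference was 0.14 (adjusted p = 0.17). At 12 and 72 h the arrays of the treatments overlapped, and the differences did not pass (intervals -0.09 to 0.78 and -0.07 to 0.71, adjusted p = 0.528 and 0.452). With the Actb covariates the 6 h difference was 0.00 and 0.07.

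Cebpb, which encodes C/EBP beta and with Cebpa is needed for commitment to differentiation in mouse epidermis, fell with time and did not differ past the test between treatments. The untreated mean was 10.88 ± 0.16 (SD, n = 2) at 6 h and 9.75 ± 0.11 (SD, n = 3) at 72 h, and the Dox mean 10.70 ± 0.02 and 9.82 ± 0.09 (SD, n = 3 each). These changes were -1.13 (adjusted p = 2.18e-08) and -0.88 (adjusted p = 3.24e-07), and on the authors' values -0.39 (adjusted p = 0.0287) and -0.14 (adjusted p = 0.349). Its Dox differences lay between -0.18 at 6 h and 0.07 at 72 h, and the 6 h interval was -0.43 to 0.06.

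Gata3, a zinc-finger factor of the inner root sheath and of barrier lipid synthesis, was higher with Dox at 6 h. The untreated arrays read 7.70 and 7.72 and the Dox arrays 8.16, 8.09 and 8.13, which do not overlap, as for 49.2% of all kept probes at this time. The difference was 0.42 (SE 0.12, interval 0.18 to 0.66, 1.34-fold, adjusted p = 0.00874). It was 0.41 without untreated replicate 1 (adjusted p = 0.0574), 0.12 with arrays scaled to a common median (adjusted p = 0.656), and 0.85 and 0.79 with the Actb covariates (adjusted p = 0.196 and 0.0665). From 12 h on its differences were -0.01, -0.14, -0.25 and -0.07, none past the test. The effect depended on time when 6 h was included (adjusted p = 0.0337) and did not pass when it was left out (adjusted p = 0.799).

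Over culture time most called members were lower at 72 h, a direction that depended on the scaling: on the authors' values 8 of 13 probes were above 0 in the Dox change from 6 to 72 h (6 called higher and 2 lower) and 6 of 13 in the untreated one (4 called higher and 4 lower). On those values 86.9% of all kept probes were called in the Dox change and 78.4% in the untreated one. Of these calls 98.1 and 96.9% were higher, so the members rose less often than kept probes at large. In the values used here, between 6 and 72 h 9 of 13 probes fell and 1, Grhl1 probe 2, rose in untreated cultures (0.43, adjusted p = 0.0405), against 44.4% of all kept probes called, 21.8% higher and 22.6% lower. With Dox 9 of 13 fell and 0 rose, against 35.9% called and 17% called lower. The median change of the 13 probes was -0.86 untreated and -0.60 with Dox, beside -0.01 and 0.02 for all kept probes. Between 24 and 72 h 6 of 13 fell untreated (17.1% of all kept probes called, 8.74% lower), which were Ovol1, the 3 Klf4 probes, Grhl3 and Cebpb, and 1, Ovol1, fell with Dox (14% called, 6.71% lower). A call in one treatment and not in the other is not a difference between treatments; the test of that difference is the 72 h against 24 h comparison given for Klf4, in which 1 of 13 probes passed.

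Array set and time cannot be told apart in these changes, because all 72 h arrays form a set of their own. Other scalings move the whole array: the Dox change from 6 to 72 h of the median kept probe was 0.29 when arrays were scaled to a common median and 0.27 on the authors' values. With the common median 4 of 13 members were called in place of 9, all 4 lower. Of all kept probes 47.6% were called in that setting, and 89% of those calls were higher. With an Actb covariate 2 or 5 of 13 probes passed in the untreated change from 6 to 72 h, where 7.6 or 20.9% of all kept probes did.

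**Figure D4:**
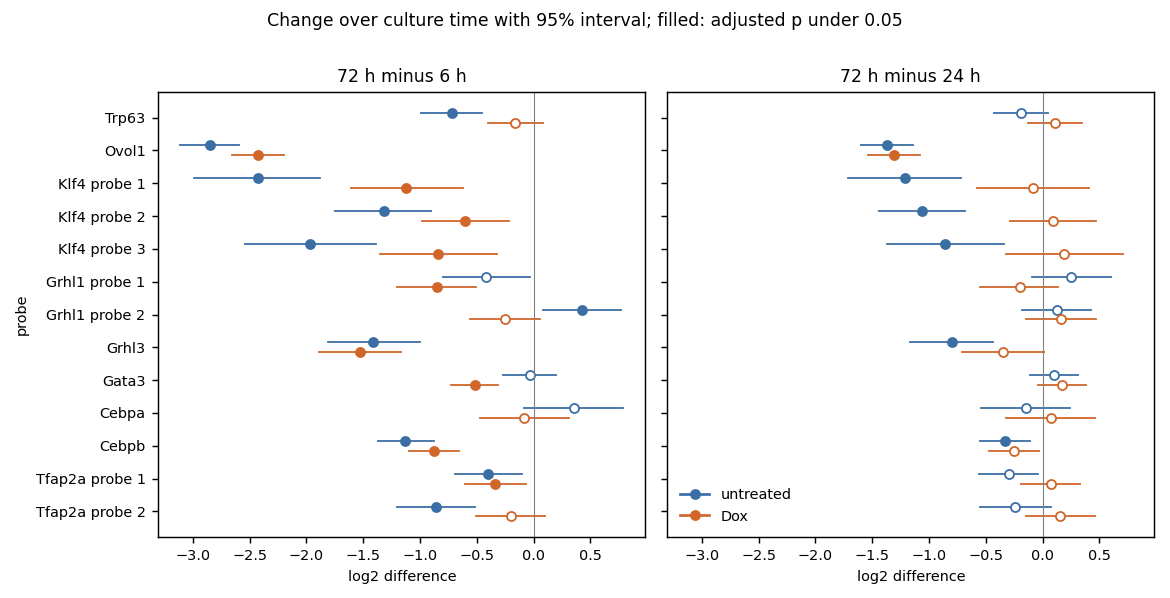
Change with culture time (log2) of the 13 kept probes, 72 h minus 6 h and 72 h minus 24 h, with 95% intervals, in untreated and Dox cultures; filled points have an adjusted p below 0.05. From 24 to 72 h the 3 untreated Klf4 points lie between -1.21 and -0.86 and the 3 Dox points between -0.08 and 0.19.

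Differentiation genes, from a list chosen like the p63 list, were counted in the same way. Of 29 measured, 20 fell and 1 rose from 6 to 72 h in untreated cultures and 21 fell and 1 rose with Dox, with medians of -1.10 and -0.98 beside -0.05 and 0.00 for all genes (44.5 and 37.7% of genes called). These list counts are from the main fit. On the authors' values 96.9 and 98.1% of the calls over all kept probes in these changes were higher. With the Actb covariates 7.6 and 20.9% of all kept probes were called in the untreated change. Between treatments 4 of 29 were called at 72 h (6.25% of all genes) and 3 of 29 at 48 h (2.58%). At 72 h Aloxe3, an epidermal lipoxygenase (0.77, adjusted p = 9.22e-05), and Ppl, the envelope protein periplakin (0.50, adjusted p = 0.025), were higher with Dox, and Casp14, the cornification caspase (-0.80, adjusted p = 0.000444), and Tgm1, the cross-linking transglutaminase (-0.72, adjusted p = 0.00121), were lower. At 48 h Aloxe3, Sprr2d and Ppl were higher (0.78, 0.64 and 0.61), at 12 and 24 h 0 of 29 passed the limma test (1.38 and 2.89% of all genes), and at 6 h 2 rose and 3 fell (24.3% of all genes called), led by Cnfn, cornifelin (0.71, adjusted p = 6.89e-05). At 72 h the list's median difference was 0.01.

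Among 33 measured epidermal transcription factors outside the set, 2 were higher with Dox at 72 h and 0 lower, a share close to the 6.25% of all genes called. These were Ets1, an ETS factor that opposes terminal differentiation in mouse skin (0.69, adjusted p = 9.31e-05), and Bnc1, the basal zinc-finger factor basonuclin (0.47, adjusted p = 0.0126). Sox9, a hair follicle factor, was lower at 48 h (-0.60, adjusted p = 0.0188) and Elf3, an epithelial ETS factor, higher at 24 h (0.44, adjusted p = 0.0328). Of all genes 2.58 and 2.89% were called at 48 and 24 h. At 6 h, against 24.3% of all genes called, 3 rose and 2 fell, among them Klf5 (0.52) and Pou3f1 (0.39) higher and Dlx3 (-0.88) and Tfap2c (-0.40) lower. Of 13 measured chromatin regulators of epidermal differentiation 0 passed at 12, 24, 48 or 72 h, where 1.38, 2.89, 2.58 and 6.25% of all genes were called. At 6 h 4 passed, a share close to the 24.3% of all genes called. The Polycomb genes Bmi1 (0.83) and Ezh2 (1.10) were higher and the remodeller Smarca4 (-0.86) and Uhrf1 (-0.41), a cofactor of DNA methylation, lower. The Actb readings differ most at 6 h, and with the Actb covariates 0.78 and 2.25% of all kept probes were called then.

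For members called in a Dox comparison, the genes with the most similar pattern over the 10 group means were listed by Pearson correlation on the brightest probe, as a description of groups that share arrays. Klf4 was most like Mapk6 (r = 0.988), Vopp1 (0.977) and Arhgap27 (0.969), and Trp63 most like Myadm (0.972), Atp6v1h (0.967) and Ehd1 (0.957). Ovol1 was closest to Atp1b1 (0.993), Phlda1 (0.992) and AW549877 (0.991). The nearest patterns for Gata3 were less close, at 0.927 for Tnrc18, 0.902 for Ndel1 and 0.895 for Septin5. Grhl1 probe 1 was nearest to Arih1 (0.957), Lgalsl (0.953) and S100a9 (0.949), and Cebpa to Uck1 (0.956), Wasf2 (0.944) and Amdhd2 (0.939). The Grhl1 call was on probe 2 only, and its group means correlated with those of probe 1 at r = 0.40. Cebpa was detected on 13 of 29 arrays, so its pattern rests largely on values near the detection limit.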

How the data were processed

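RNA was read on 29 Illumina bead arrays of 25697 probes; for each treatment at 72 h, both arrays with the letter C entered as their mean, leaving 27 replicates. Per the file headers, the deposited signal table holds intensity values that are not normalized, with a detection p-value for each in the same deposited table. A second table holds log2 values the authors deposited after a normalization the sources used here do not name. These have slopes of 0.654 to 0.835 on the log2 signal, so a smaller difference on them is not by itself a smaller effect. Per the labels' protocols RNA was extracted with Trizol. The labels give Dox as 1 µg/ml in one field and 1 µg/L in another.

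Signals were background-corrected and quantile-normalized by neqc (limma 3.58.1, R 4.3.3, offset 16, detection p-values), and probes detected on at least 2 arrays were kept. One limma fit of 10 groups left 17 residual degrees of freedom (prior 8.19, prior SD 0.159). Group sizes of 2 or 3 replicates limit precision, and between 33.4 and 37.8% of probes were detected per array. Of 25697 probes 23978 have 1 symbol in the annotation table and 1719 none. Genes with several probes were counted in lists by the brightest, giving 8271 genes.

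All member probes are named; from each list, up to 4 genes called in a Dox comparison with the smallest adjusted p; and the 3 most similar genes per called member. Members and lists were chosen with earlier results of these data known. The authors' values fall into 4 distributions, read as array sets of 6, 8, 7 and 8 arrays: 6, 48 and 72 h comparisons lie within one set, those at 12 and 24 h cross sets. The procedure was tested on simulated data. Alternatives covered background, normalization, the authors' values, the detection filter, letter C arrays, array weights, trend, fold minimum, Actb covariates, blocks and leaving out each replicate; the covariate from the widest Actb pair and the 72 h against 24 h comparison of Dox effects were added after seeing the data.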

Additional observations from a re-analysis of the deposited data

Results flagged for a closer look

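The effect of Dox differed over the 5 times, by limma's F test with Benjamini-Hochberg adjustment, for Klf4 probe 1 (adjusted p = 0.0118), Klf4 probe 2 (adjusted p = 0.0182) and Gata3 (adjusted p = 0.0337). Klf4 probe 1 went from -0.58 at 12 h to 1.09 at 72 h, and probe 2 from -0.24 at 24 h to 0.90 at 72 h. Gata3 went from 0.42 at 6 h to -0.25 at 48 h, and its adjusted p was 0.799 without the 6 h effect, when the Actb probes read differently in the 2 treatments; the part of that reading in the result was not tested beyond the covariate fits.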

How the results depend on the processing

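Of 261 recomputed counts of called member probes over 11 comparisons, 226 stayed within 1.5 times the reported count and 35 did not. At 6 h the count of 4 became 1 on the authors' values, 0 with either Actb covariate and 1 with a fold minimum of 1.2. Of all kept probes 6.79% were called on the authors' values, 0.78 and 2.25% with the Actb covariates and 8.01% with the fold minimum. At 24 h the count of 0 became 5 under median scaling and 2 on the authors' values, and at 48 h 1 with the intensity trend. The shares of all kept probes called there were 19.4 and 12.5% at 24 h and 2.69% at 48 h. At 72 h the count of 4 became 0 with the fold minimum, where 1.36% of all kept probes were called. From 6 to 72 h the untreated count of 10 became 2 and 5 with the Actb covariates (7.6 and 20.9% of all kept probes). The Dox count of 9 became 4 with median scaling (47.6% of all kept probes). From 24 to 72 h the untreated count of 6 became 3 on the authors' values, where 21% of all kept probes were called. The Dox count of 1 became 5 under median scaling and 6 on the authors' values. Of all kept probes 26 and 29.6% were called there, against 14% in the main fit. For the difference of Dox effects between 72 and 24 h the count of 1 became 3 with median scaling (2.21% of all kept probes called). It became 2 on the authors' values, with all 29 arrays and with array weights (2.58, 1.91 and 2.12%). It became 0 without a detection filter and with the first letter C array only (0.494 and 1.37%). It was also 0 with the Actb covariate of the brightest and dimmest probes and with the array set block (0.644 and 0.297%). For dependence on time the count of 3 became 5 with median scaling, cyclic loess, all 29 arrays and the trend. Of all kept probes 19.1, 15.7, 16.8 and 16.5% were called there. It became 1 without a detection filter (6.38% of all probes), and 0 and 1 with the Actb covariates (2.89 and 4.28% of kept probes).

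Leaving out 1 replicate gave 2 to 4 calls at 6 h (2 without untreated replicate 1 of 6 h), 0 to 0 at 12, 24 and 48 h, 3 to 4 at 72 h, 9 to 9 and 7 to 8 from 6 to 72 h untreated and with Dox, 4 to 6 and 1 to 1 from 24 to 72 h, 0 to 1 for the 72 h against 24 h difference and 2 to 4 for dependence on time. The letter pairs correlated at r = -0.05 to 0.15 over 12 pairs, 1 of them above 0.1, which does not settle whether a letter marks a shared source; apart from the averaging of the letter C arrays, letters were not used to pair samples. With the letter as a replicate block the counts were 4, 0, 0, 0 and 4 at the 5 times (24.1, 1.32, 2.56, 2.32 and 5.55% of all kept probes). With the title number as a replicate block they were also 4, 0, 0, 0 and 4 (24.5, 1.91, 2.61, 2.25 and 8.09%).

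On the authors' values the untreated change from 6 to 72 h reversed for Grhl1 probe 1 (0.26), Gata3 (0.49), Tfap2a probe 1 (0.34) and Tfap2a probe 2 (0.01). The Dox change reversed there for Trp63 (0.58), Klf4 probe 2 (0.16), Klf4 probe 3 (0.02), Grhl1 probe 2 (0.22), Gata3 (0.21), Cebpa (0.16), Tfap2a probe 1 (0.41) and Tfap2a probe 2 (0.32). With median scaling 5 of 13 probes were above 0 in the Dox change, against 0 in the main fit, among them Tfap2a probe 1 (0.16). The cause was not tested. The share of calls over all probes that were higher was 23.5% with median scaling, 59.7% with cyclic loess and 61.9% on the authors' values at 6 h (main 49.4%), 86.1% under median scaling and 99.9% on the authors' values at 12 h (75.1%), and with median scaling 2.88% at 24 h (49.7%) and 71.1% at 48 h (54.5%). In the changes from 6 to 72 h it was 72.1 and 89% after scaling to the median, and 96.9 and 98.1% on the authors' values (49.1 and 52.6%), and from 24 to 72 h 63.8 and 93%, and 87.8 and 90.7% (48.9 and 51.9%), untreated and with Dox. For the difference of Dox effects it was 80.8% with median scaling (44.1%). At 24 h the median kept probe moved by -0.23 and 19.4% of probes were called with median scaling.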
